A study of Mus musculus with 18 samples.

Results

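Irx1, Irx2, Hhex, Neurog3, Sox9, Pax4, Sox4 and Myt1 are transcription factors of islet cells other than the mature beta cell, or of the progenitors that islet cells come from. They were chosen by name as factors of alpha cells, delta cells and islet progenitors, and make 8 of the 53090 genes counted in beta cells sorted from mouse islets. Of these 8 genes, 6 passed the filter on low counts, which left 19284 genes to test. Hhex was listed at 0 in every library, and Pax4 had too few counts to be tested.

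Sox9 marks the multipotent cells of the embryonic pancreas and stays on in the ducts, and Neurog3 is switched on for a short time in the cells that leave this state to become endocrine. Pax4, Myt1 and Sox4 act with or after Neurog3 during endocrine differentiation. Irx1 and Irx2 are factors of alpha cells, which make glucagon from Gcg, and Hhex is needed by delta cells, which make somatostatin from Sst. In a sort of beta cells, Gcg and Sst are read here as the hormone transcripts of alpha and delta cells. The PP cell hormones, Ppy and Pyy, are not part of this measure. Other markers of the other islet cells did not all follow Gcg and Sst, as described with the hormones.

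The 18 libraries form 4 groups. The group LIRKO HFD (3 libraries) is from mice with a liver-specific knockout of the insulin receptor fed HFD, read here as a high-fat diet, and LIRKO chow (4 libraries) is from such mice on chow. The groups Ctrl HFD (5 libraries) and Ctrl chow (6 libraries) are from control mice on the same diets. The islets were picked by hand, kept overnight in culture and dispersed, and the cells were sorted by forward scatter and their own fluorescence. The deletion is in the liver, so reads from beta cells cannot check it. The labels give no promoter driving the deletion, and no age, sex, diet composition or batch, and they do not tie libraries to animals. What the p-values below measure is therefore the scatter among libraries, part of which may be technical, and replicate numbers are only names.

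The libraries held 19490235 to 51714775 counts. The labelled cell type was checked against its markers. The summed level of 8 beta cell markers, led by Ins2, Ins1 and Iapp, was 98601 to 232008 CPM (counts per 1000000, on library sizes scaled by edgeR's TMM method). Markers of other cells were also counted in every library. Their summed levels over all 18 libraries were 500.0 to 4429 CPM for 8 alpha cell markers, 115 to 896 CPM for 5 delta cell markers and 127 to 1937 CPM for 2 PP cell markers. They were 772 to 1376 CPM for 6 duct markers (most of it the single gene Krt7), 7.27 to 498 CPM for 6 acinar markers and 16.8 to 283 CPM for 7 endothelial markers. The same sums were 79.8 to 147 CPM for 5 macrophage markers, 1.32 to 75.1 CPM for 6 mesenchymal markers and 11.5 to 44.9 CPM for 4 Schwann cell markers, of which Sox10 was at 0 in LIRKO chow. Ctrl HFD replicates 1 and 2 stood apart from the other 3 Ctrl HFD libraries, with 19490235 and 21590129 counts and with 13251 and 10629 CPM of the nuclear RNA Malat1, against 2454 to 3864 CPM. LIRKO chow replicates 1 and 2 were closely alike, and so were replicates 3 and 4. A chi-square of the counts of these pairs over genes was 4.67 and 5.94 per degree of freedom, where sampling noise alone gives 1, against 24.1 to 244 for every other pair of libraries within a group. The pairs thus differed by more than sampling noise and are counted as 4 libraries, but they may be repeat libraries of the same source, which the labels do not say. LIRKO chow may then hold only 2 independent samples, and p-values at n = 4 would be too small. Fits with each pair summed are given for that reason. Results that turn on these libraries are given with and without them.

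The promoters of Irx2, Neurog3 and Sox4 are shown because these were the 3 members whose level in every LIRKO HFD library was above that in every LIRKO chow library. Among all 19284 tested genes, 16.1% were higher in this way. RefSeq's promoter table of the mouse build GRCm38.p6 held 5 of the 8 genes, and gives 250 bases before to 50 bases after a start site. The Irx2 window is chr13:72628570-72628869 on the + strand, the Neurog3 window is chr10:62132840-62133139 on the + strand and the Sox4 window is chr13:28953650-28953949 on the − strand. Capitals mark the CCAAT box, as CCAAT or as its reverse complement ATTGG.
Irx2: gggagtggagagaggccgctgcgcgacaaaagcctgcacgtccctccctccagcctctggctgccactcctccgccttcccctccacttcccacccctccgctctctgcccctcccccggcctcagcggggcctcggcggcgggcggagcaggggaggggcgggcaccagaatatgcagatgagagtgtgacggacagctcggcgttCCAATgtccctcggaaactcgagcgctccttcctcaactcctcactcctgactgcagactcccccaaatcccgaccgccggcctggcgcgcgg
Neurog3: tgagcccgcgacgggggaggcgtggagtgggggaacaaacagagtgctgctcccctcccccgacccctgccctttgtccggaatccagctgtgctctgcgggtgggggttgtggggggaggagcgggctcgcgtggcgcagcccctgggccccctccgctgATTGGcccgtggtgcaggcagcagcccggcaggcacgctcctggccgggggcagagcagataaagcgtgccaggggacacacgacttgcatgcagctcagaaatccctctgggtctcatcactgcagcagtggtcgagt
Sox4: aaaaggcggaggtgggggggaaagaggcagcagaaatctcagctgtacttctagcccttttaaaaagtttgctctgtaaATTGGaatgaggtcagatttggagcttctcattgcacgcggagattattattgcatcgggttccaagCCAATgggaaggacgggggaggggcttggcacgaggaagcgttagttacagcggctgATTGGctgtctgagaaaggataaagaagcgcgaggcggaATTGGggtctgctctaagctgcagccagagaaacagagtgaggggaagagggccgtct
The CCAAT box occurred once in the Irx2 window, with its first base at −43 from the start site, and once in the Neurog3 window, at −89. It occurred 4 times in the Sox4 window, at −171, −104, −47 and −8. Among all 32851 windows of the same length in the table, 37.4% held at least 1 on either strand. The E-box CANNTG, the motif of helix-loop-helix factors such as Neurog3, occurred once in each of the 3 windows and in 72.3% of all windows. The N-box CACNAG, a motif of Hes repressors, occurred once in the Irx2 and Sox4 windows, not in the Neurog3 window, and in 42.5% of all windows. No window held TATAAA, which 13.6% of all windows held. The 3 windows held 25, 19 and 12 CpG dinucleotides, against a median of 7 over all windows. These are matches of letters on both strands and not measured binding sites.

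The members differed widely in level. On a scale corrected for exon length (RPKM), the medians over the 18 libraries were 12.7 for Myt1, 2.34 for Sox4, 1.15 for Neurog3, 1.10 for Irx2, 0.289 for Irx1 and 0.0688 for Sox9. The medians of Pax4 and Hhex were 0. Irx2 and Neurog3 were close to each other on this scale, and their ranges over libraries overlapped. Gcg and Sst had medians of 767 and 229 RPKM, above every member.

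**Figure D1:**
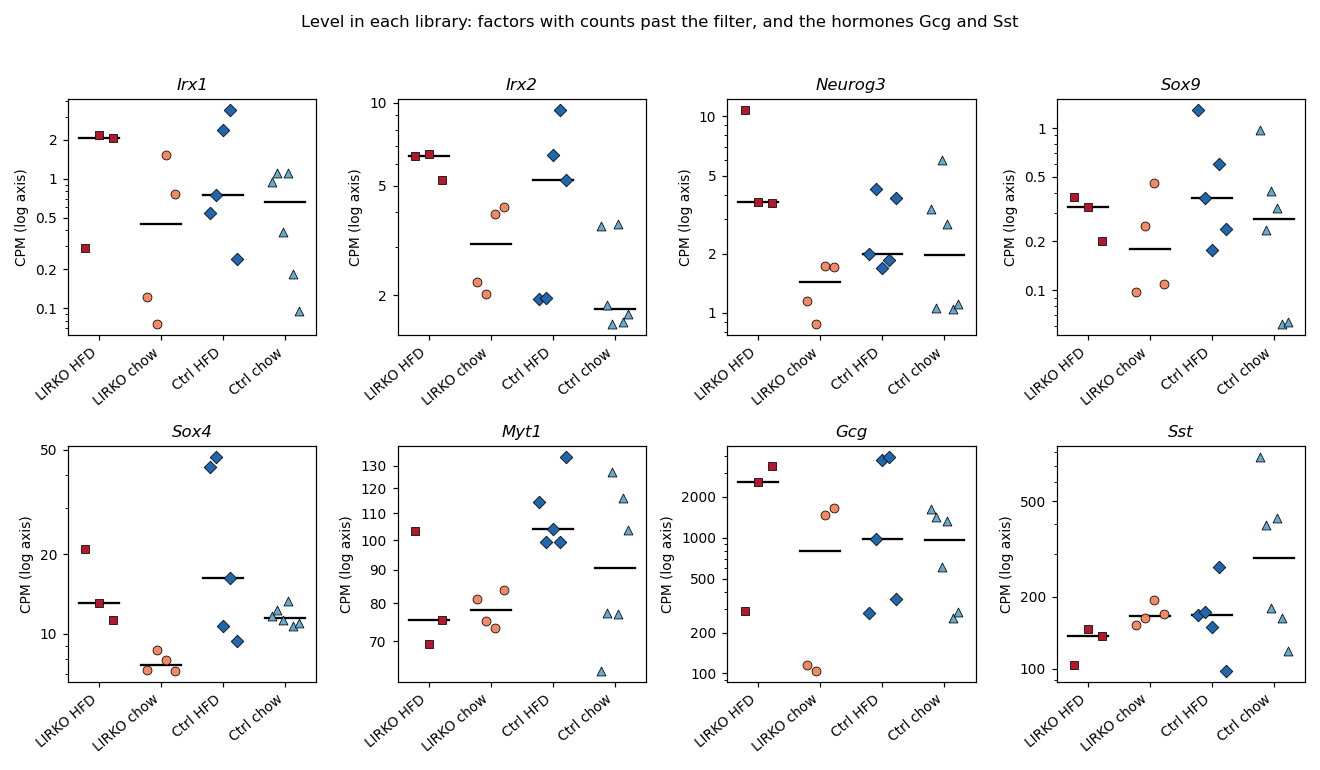
Level of the 6 tested members, of Gcg and of Sst in each library, in CPM on log axes; each point is 1 library, each bar the median of its group, and groups run LIRKO HFD, LIRKO chow, Ctrl HFD, Ctrl chow. Sox4 is highest in 2 of the 5 Ctrl HFD libraries (43.1 and 47.1 CPM), and Irx1 spreads over a range in each group much as Gcg does.

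Irx1 and Irx2, the alpha cell factors, did not pass the edgeR test in any comparison with all libraries in the fit and TMM scaling. Irx1 (ENSMUSG00000060969, chr13:71957921-71963723, − strand, GRCm38) was counted 3 to 108 times per library. Its levels were 0.290, 2.18 and 2.05 CPM in LIRKO HFD, and 0.122, 0.0748, 1.52 and 0.769 CPM in LIRKO chow. In Ctrl HFD they were 0.546, 0.745, 2.40, 3.40 and 0.238 CPM, and in Ctrl chow the lowest, median and highest were 0.0950, 0.667 and 1.12 CPM. Every group held libraries above 0.7 CPM and libraries below 0.3 CPM, and all 4 groups overlapped. The log2 change of Irx1 was 1.27 ± 0.98 (SE) in LIRKO HFD against LIRKO chow (adjusted p = 0.522) and 1.21 ± 0.80 in Ctrl HFD against Ctrl chow (adjusted p = 0.286). Between genotypes it was −0.03 ± 0.86 on chow (adjusted p = 0.993) and 0.04 ± 0.93 on HFD (adjusted p = 0.996). In bulk RNA, fewer cells of a type and less RNA per cell cannot be told apart.

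Irx2 (ENSMUSG00000001504, chr13:72628820-72634198, + strand) had 6.42, 6.50 and 5.24 CPM in LIRKO HFD, and 2.23, 2.02, 3.93 and 4.17 CPM in LIRKO chow. All 3 LIRKO HFD libraries were above all 4 LIRKO chow libraries, as for 16.1% of all genes. In Ctrl HFD it had 1.94, 1.96, 6.48, 9.42 and 5.23 CPM, and in Ctrl chow the lowest, median and highest were 1.57, 1.78 and 3.63 CPM. In Ctrl HFD the high values were those of replicates 3, 4 and 5, above every Ctrl chow library, and replicates 1 and 2 lay within the Ctrl chow range. The log2 change was 0.97 ± 0.47 (SE) in LIRKO HFD against LIRKO chow (adjusted p = 0.316) and 1.12 ± 0.38 in Ctrl HFD against Ctrl chow (adjusted p = 0.0630). Without Ctrl HFD replicates 1 and 2, the change in Ctrl mice was 1.65 and passed (adjusted p = 0.0472). DESeq2 called it with all libraries (log2 change 1.13, adjusted p = 0.0241), in a fit that called 20.5% of all genes. So did edgeR with upper-quartile scaling, in a fit that called 11.5% of all genes. Of 9 alternatives other than leaving out 1 library, only these 3 passed. Of the 18 fits that left out 1 library, 1 passed (adjusted p of 0.0364 to 0.143 over all 18). Between genotypes the log2 change was 0.41 ± 0.41 on chow and 0.27 ± 0.45 on HFD, with adjusted p-values of 0.633 and 0.929.

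Hhex, the delta cell factor (ENSMUSG00000024986, chr19:37434810-37440731, + strand), was listed at 0 in all 18 libraries, among 635161057 counts in all. No comparison and no relation to Sst could be made for it. The zero was shared by its neighbours on the chromosome. Ide and Kif11, the next protein-coding genes before it, were also listed at 0 in every library, and March5 before those had 7 counts in all. Cpeb3 and Exoc6, on the outer sides of this stretch, had 22171 and 13580 counts. Of the 21896 protein-coding genes in the table, 3258 were at 0 in every library. They include Uqcrc1, a subunit of the respiratory chain, Sf1, a splicing factor, Men1, which encodes menin, Ranbp1 and Dgcr8, all of which cells use widely (named after their values were seen). The 0 of Hhex is therefore given as a listed value and not as a level, and no limit on its expression is drawn from it.

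**Figure D2:**
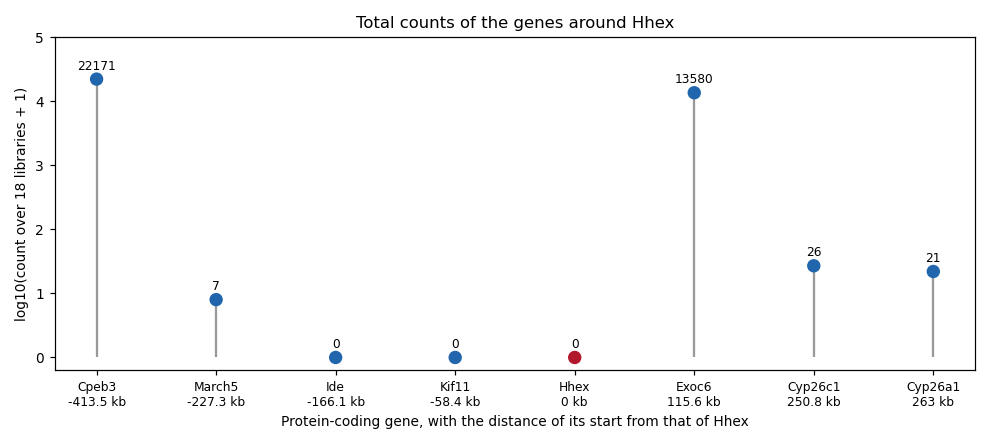
Total count over the 18 libraries, as log10 of the count plus 1, of Hhex (red) and of the protein-coding genes on both sides of it (blue), with the distance of each start from that of Hhex in kb. Ide, Kif11 and Hhex are at 0 while Cpeb3 and Exoc6 have 22171 and 13580 counts.

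Neurog3, the switch of endocrine commitment (ENSMUSG00000044312, chr10:62133090-62134763, + strand), showed the largest fitted change of the 6 tested members, and did not pass the test. It had 10.8, 3.66 and 3.61 CPM in LIRKO HFD, and 1.15, 0.873, 1.74 and 1.70 CPM in LIRKO chow. All 3 LIRKO HFD libraries were above all 4 LIRKO chow libraries, as for 16.1% of all genes. Replicate 1 of LIRKO HFD was the highest of the 18 libraries. In Ctrl HFD it had 1.99, 4.28, 1.69, 1.86 and 3.83 CPM, and in Ctrl chow the lowest, median and highest were 1.05, 1.97 and 5.97 CPM. These 2 groups overlapped. The log2 change in LIRKO HFD against LIRKO chow was 2.13 ± 0.59 (SE), a 4.38-fold difference, with an unadjusted edgeR p of 0.00187 and an adjusted p of 0.0652. DESeq2 called it (adjusted p = 0.00950). Without LIRKO HFD replicate 1 the change was 1.40 (adjusted p = 0.304), and with the LIRKO chow pairs summed it was 2.13 (adjusted p = 0.410). It passed without Ctrl HFD replicates 1 and 2 (log2 change 2.14, adjusted p = 0.0406), in a fit that called 6.29% of all genes, and with only the 2 groups compared (log2 change 2.14, adjusted p = 0.0164), in a fit that called 18.8%. Leaving out Ctrl chow replicate 3, which is in neither group, gave an adjusted p of 0.0387.

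In Ctrl HFD against Ctrl chow the log2 change of Neurog3 was 0.08 ± 0.46 (SE, adjusted p = 0.913). The difference between the diet responses of LIRKO and Ctrl mice, the interaction term, was 2.05 ± 0.75, with an unadjusted p of 0.0133 and an adjusted p of 0.761. In LIRKO HFD against Ctrl HFD the change was 1.14 ± 0.54 (adjusted p = 0.641), and in LIRKO chow against Ctrl chow it was −0.91 ± 0.51 (adjusted p = 0.362). The Neurog3 exon shares 273 bases, 16.3% of its length (chr10:62134489-62134761), with an exon of Fam241b on the opposite strand. The libraries were made with a directional kit, but the strand setting used for counting is not given in the sources used here, so reads of the shared bases cannot be assigned with certainty. Fam241b had 62.1, 37.2 and 34.4 CPM in LIRKO HFD and 36.8, 39.0, 34.3 and 32.5 CPM in LIRKO chow. Its log2 change was 0.32 (adjusted p = 0.417), and the library highest in Neurog3 was also the highest in Fam241b. The part of these shared bases in the Neurog3 values was not tested.

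Pax4 (ENSMUSG00000029706, chr6:28442334-28449353, − strand), which favours the beta over the alpha cell fate, had 13 counts in all. LIRKO HFD had 1, 1 and 0 counts, and all 4 LIRKO chow libraries had 0. Ctrl HFD had 5, 4, 0, 1 and 0 counts, and Ctrl chow had 1 count in replicate 3 and 0 in the other 5 libraries. The counts of 5 and 4 were in Ctrl HFD replicates 1 and 2, the libraries that stood apart. Where a library had 0, a count of up to 3 is allowed, which is 0.0599 to 0.0823 CPM in LIRKO chow. These limits cover counting error only.

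Sox4 (ENSMUSG00000076431, chr13:28948919-28953713, − strand) is a factor of endocrine differentiation that acts with Neurog3. It was the only member past the edgeR test in any comparison with all libraries in the fit, TMM scaling and no covariates. It had 21.0, 13.0 and 11.2 CPM in LIRKO HFD, and 7.25, 8.68, 7.95 and 7.22 CPM in LIRKO chow. It had 43.1, 47.1, 10.7, 16.2 and 9.40 CPM in Ctrl HFD, and in Ctrl chow the lowest, median and highest were 10.7, 11.5 and 13.3 CPM. Ctrl HFD replicates 1 and 2 were far above all other libraries. Replicate 5 lay below the lowest Ctrl chow library, and replicate 3 was level with it at 10.7 CPM. In Ctrl HFD against Ctrl chow Sox4 was 2.16-fold higher (log2 change 1.11 ± 0.34 SE, adjusted p = 0.0479, edgeR). It was thus 1 of 6 tested members called, in a comparison that called 9.93% of all 19284 genes and 5.57% as higher. The call did not hold without Ctrl HFD replicates 1 and 2, where the log2 change was 0.09 (adjusted p = 0.791). It was lost in 13 of the 18 fits that left out 1 library, with adjusted p-values over these fits from 0.0203 to 0.159, and with limma-voom (log2 change 0.70, adjusted p = 0.167).

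The other comparisons of Sox4 did not pass. All 4 LIRKO chow libraries were below all 6 Ctrl chow libraries, with a log2 change of −0.59 ± 0.37 (SE, adjusted p = 0.422). Of all genes, 5.21% were lower in every LIRKO chow than in every Ctrl chow library. Fitted on these 2 groups alone, with a spread that leaves out Ctrl HFD, the same change was −0.57 ± 0.12 and passed (adjusted p = 0.00931). With the LIRKO chow pairs summed it was −0.58 (adjusted p = 0.820). All 3 LIRKO HFD libraries were above all 4 LIRKO chow libraries, as for 16.1% of all genes. The log2 change was 0.95 ± 0.42 (adjusted p = 0.268). Without Ctrl HFD replicates 1 and 2 that change was 0.96 ± 0.20 and passed (adjusted p = 0.0109). Between LIRKO HFD and Ctrl HFD the change was −0.74 ± 0.42 (adjusted p = 0.716) and had the opposite sign, 0.31, without Ctrl HFD replicates 1 and 2.

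Myt1 (ENSMUSG00000010505, chr2:181763332-181827797, + strand), a zinc finger factor that works with Neurog3 and stays on in endocrine cells, was the most abundant member. It had 103, 69.3 and 75.5 CPM in LIRKO HFD, and 81.1, 75.1, 73.3 and 83.9 CPM in LIRKO chow. It had 114, 99.4, 104, 99.2 and 134 CPM in Ctrl HFD, and in Ctrl chow the lowest, median and highest were 63.0, 90.5 and 127 CPM. Replicate 1 of LIRKO HFD reached the Ctrl HFD range, and the other LIRKO HFD libraries lay below it. The log2 change was −0.42 ± 0.20 (SE) in LIRKO HFD against Ctrl HFD (adjusted p = 0.654) and −0.26 ± 0.18 in LIRKO chow against Ctrl chow (adjusted p = 0.464). With the levels of Gcg and Sst as covariates, the chow difference was −0.48 ± 0.12 and passed (adjusted p = 0.0217), in a fit that called 8.36% of all genes. Of 9 alternatives other than leaving out 1 library, which include the LIRKO chow pairs summed, it passed in this 1 only. Of the 18 fits that left out 1 library, it passed in 0. The diet changes were 0.08 ± 0.21 in LIRKO and 0.23 ± 0.17 in Ctrl mice, with adjusted p-values of 0.867 and 0.330.

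Sox9 (ENSMUSG00000000567, chr11:112782224-112787760, + strand), the progenitor and duct factor, was near the floor of the data, with 2 to 37 counts per library. It had 0.377, 0.327 and 0.200 CPM in LIRKO HFD, and 0.0980, 0.249, 0.459 and 0.110 CPM in LIRKO chow. It had 1.29, 0.372, 0.178, 0.598 and 0.238 CPM in Ctrl HFD, and in Ctrl chow the lowest, median and highest were 0.0616, 0.277 and 0.973 CPM. All 4 groups overlapped. The log2 changes were −0.78 and −0.57 between genotypes on HFD and on chow, and 0.36 and 0.57 between diets in LIRKO and in Ctrl mice, with SEs of 0.64 to 0.82 and adjusted p-values of at least 0.539. The summed level of the 6 duct markers, most of it Krt7, was 879 to 1067 CPM in LIRKO HFD, 1018 to 1211 CPM in LIRKO chow, 772 to 1088 CPM in Ctrl HFD and 931 to 1376 CPM in Ctrl chow. Of the 5 duct markers tested, 1 passed in any comparison, where the pairwise comparisons called 0.508% to 9.93% of all genes. This was Spp1, osteopontin, in LIRKO chow against Ctrl chow, where 2.95% of all genes were called higher. It averaged 137 ± 7.5 CPM (SD, n = 4) in LIRKO chow and 32.04 ± 22.09 CPM (SD, n = 6) in Ctrl chow. Its log2 change was 2.10 (edgeR adjusted p = 0.00884), and it did not pass with the LIRKO chow pairs summed (adjusted p = 0.0948). In the same comparison Krt7 had a log2 change of −0.12 (adjusted p = 0.704) and Krt19 one of 0.91 (adjusted p = 0.153). The part of duct RNA in the Sox9 values was not tested.

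**Figure D3:**
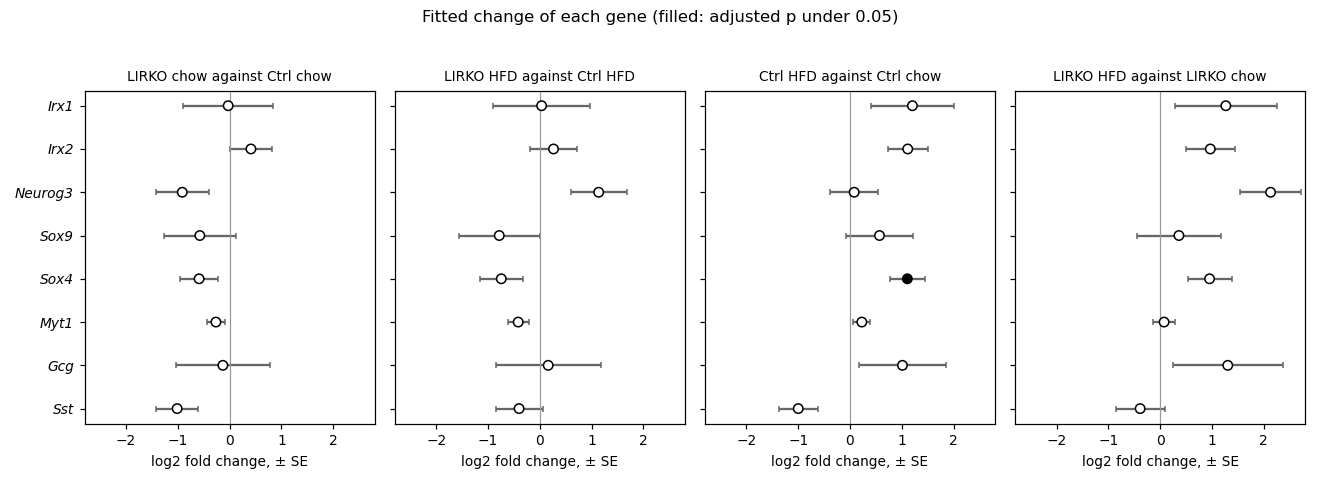
Fitted log2 fold change with its SE for the 6 tested members, Gcg and Sst in the 4 pairwise comparisons, named group first. Of the 6 members, Sox4 in Ctrl HFD against Ctrl chow (1.11 ± 0.34) is the only filled point, which marks an adjusted p under 0.05.

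Counted by comparison, edgeR called 0 of the 6 tested members in LIRKO chow against Ctrl chow, where it called 5.15% of all genes, and 0 had an unadjusted p under 0.05. In LIRKO HFD against Ctrl HFD it called 0 of 6, against 0.508% of all genes, and 0 had an unadjusted p under 0.05. DESeq2 and limma-voom also called 0 in these 2 comparisons. Between the diets in LIRKO mice edgeR called 0 of 6, against 2.03% of all genes. Neurog3 and Sox4 had an unadjusted p under 0.05, DESeq2 called 1 and limma-voom called 0. In that comparison 3 of the 6 members, Irx2, Neurog3 and Sox4, were higher in every LIRKO HFD than in every LIRKO chow library, as were 16.1% of all genes. The interaction called 0 of 6 with edgeR, DESeq2 and limma-voom, against 0.00519% of all genes with edgeR, and 1 member, Neurog3, had an unadjusted p under 0.05.

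Gcg, the hormone gene of alpha cells, varied over a wide range within each group, and Sst, that of delta cells, did so most in Ctrl chow. Gcg had 287, 2586 and 3370 CPM in LIRKO HFD, and 116, 104, 1477 and 1670.4 CPM in LIRKO chow. It had 279.7, 972, 3720.0, 3965 and 355 CPM in Ctrl HFD, and in Ctrl chow the lowest, median and highest were 255, 961 and 1634 CPM. Sst had 104, 147 and 137 CPM in LIRKO HFD, and 152, 162, 194 and 169 CPM in LIRKO chow. It had 168, 172, 149, 267 and 98.3 CPM in Ctrl HFD, and in Ctrl chow the lowest, median and highest were 118, 288 and 765 CPM. Gcg overlapped in every comparison, and Sst was lower in every LIRKO HFD than in every LIRKO chow library, as were 18.3% of all genes. Neither passed the edgeR test in any comparison with all libraries in the fit, and the adjusted p-values closest to the threshold were 0.0811 for Sst in Ctrl HFD against Ctrl chow (log2 change −0.998) and 0.179 in LIRKO chow against Ctrl chow (log2 change −1.01). DESeq2 called the first of these (log2 change −0.98, adjusted p = 0.0415).

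Other markers of alpha cells did not move with Gcg. In LIRKO chow against Ctrl chow, where the log2 change of Gcg was −0.13, 3 of the 8 alpha markers were higher and 0 were lower, against 2.95% of all genes called higher. Gc, which encodes the vitamin D binding protein, averaged 258 ± 6.6 CPM (SD, n = 4) in LIRKO chow and 69.3 ± 10.8 CPM (SD, n = 6) in Ctrl chow (log2 change 1.90, edgeR adjusted p = 2.4e-07). The amino acid transporter Slc38a5 and the transthyretin gene Ttr had log2 changes of 2.01 and 0.85 (adjusted p = 0.00383 and 0.00488). Of the 2 PP cell markers, the hormone gene Pyy was lower, against 2.2% of all genes called lower. Its log2 change was −1.76 (adjusted p = 0.0301), and Ppy did not pass (log2 change −2.01, adjusted p = 0.0804). With the LIRKO chow pairs summed only Gc among these kept its call (adjusted p = 5.6e-05), and Slc38a5, Ttr and Pyy had adjusted p-values of 0.0547, 0.0808 and 0.290. Gc was also higher in LIRKO HFD against Ctrl HFD and in Ctrl HFD against Ctrl chow, with log2 changes of 0.81 and 0.94 (adjusted p = 0.0123 and 0.00323).

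Irx1 followed Gcg across the 18 libraries. On the scale of log2 CPM with a prior count of 2, which narrows the spread of low genes, Pearson's r was 0.95 and Spearman's rho was 0.93. Each had a permutation p of 1e-05, the smallest that 100000 permutations can give, and an adjusted p of 0.00012 over 12 relations of 6 members with 2 hormones. Without the 2 libraries farthest from the median of Gcg, r was 0.94, and it was 0.94 to 0.97 when each library was left out in turn. With each group's mean removed it was 0.96 (permutation p = 7e-05), and with the LIRKO chow pairs summed it was 0.96. Within the 6 Ctrl chow libraries r was 0.97, with an exact permutation p of 0.0167 that did not pass after adjustment (0.0958). Over all tested genes with a mean log2 CPM of at least 1, Gcg had the second highest r with Irx1 of 12530 genes. The highest was that of Cd14 (0.98) and the third that of Csf2rb (0.94), as a description with no test.

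Irx2 followed Gcg less closely. Pearson's r was 0.61 (permutation p = 0.0086, adjusted p = 0.0516) and Spearman's rho was 0.66 (permutation p = 0.00378, adjusted p = 0.0227). Without the 2 libraries farthest from the median of Gcg, r was 0.58. Within the 6 Ctrl chow libraries r was 0.72 (exact permutation p = 0.107). Gcg had rank 237 among 12529 genes by r with Irx2, and the 3 genes most like Irx2 were Fam102b, Syk and Stra6l, with r of 0.85, 0.82 and 0.82.

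The difference between these factors showed in their counts per 1000 Gcg counts. Irx1 held 1.01, 0.843 and 0.610 in LIRKO HFD, 1.06, 0.716, 1.03 and 0.460 in LIRKO chow, 1.95, 0.766, 0.645, 0.858 and 0.670 in Ctrl HFD, and 0.337 to 0.848 in Ctrl chow. Irx2 held 22.3, 2.51 and 1.55 in LIRKO HFD, 19.2, 19.3, 2.66 and 2.50 in LIRKO chow, 6.92, 2.01, 1.74, 2.37 and 14.7 in Ctrl HFD, and 1.29 to 6.29 in Ctrl chow. The 4 libraries with the most Irx2 per Gcg were LIRKO HFD replicate 1, LIRKO chow replicates 1 and 2 and Ctrl HFD replicate 5, which had 104 to 355 CPM of Gcg. No ratio passed a test between groups: over 8 exact two-sided permutation tests of the log2 ratio, p was 0.157 to 0.971 and adjusted p was at least 0.825. The smallest p that these group sizes allow is 0.00216 to 0.0286. The difference nearest to the threshold was that of Irx2 per Gcg in LIRKO chow against Ctrl chow, 1.21 on the log2 scale, with group means of −7.14 ± 1.68 (SD, n = 4) and −8.36 ± 0.89 (SD, n = 6).

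**Figure D4:**
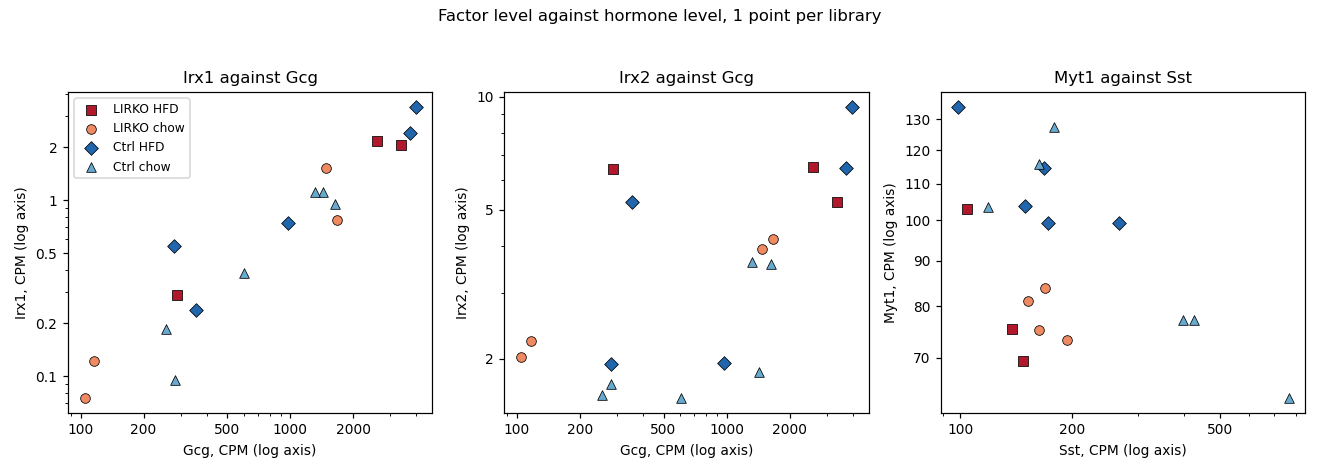
Level of Irx1 and Irx2 against Gcg and of Myt1 against Sst, in CPM on log axes, 1 point per library, with group shown by colour and shape. Irx1 rises with Gcg throughout (r = 0.95), while Irx2 is at 6.42 CPM in a LIRKO HFD library and 5.23 CPM in a Ctrl HFD library that are low in Gcg.

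No other relation passed over the 18 libraries. Myt1 ran against Sst, with a Pearson's r of −0.54 (permutation p = 0.0177, adjusted p = 0.0707) and a Spearman's rho of −0.35 (permutation p = 0.151, adjusted p = 0.363). Without the 2 libraries highest above the median of Sst, Ctrl chow replicates 1 and 4, its r was −0.32 (permutation p = 0.231), so over the 18 libraries the relation did not hold without them. When each library was left out in turn it was −0.61 to −0.39. With each group's mean removed it was −0.86 (permutation p = 0.00125, adjusted p = 0.00500). Within the 6 Ctrl chow libraries it was −0.91 (exact permutation p = 0.0319, adjusted p = 0.0958). For Neurog3, r was 0.20 with Gcg and −0.12 with Sst, and for Sox4 it was 0.02 and 0.00399. For Sox9 it was 0.23 and 0.43, and for Myt1 with Gcg it was −0.32. With Sst, r was 0.37 for Irx1 and −0.07 for Irx2. The unadjusted permutation p-values of these 9 relations were 0.0735 to 0.988. With each group's mean removed, r was 0.69 for Irx1 with Sst (permutation p = 0.00025), 0.66 for Sox9 with Sst (permutation p = 0.0200), −0.58 for Myt1 with Gcg (permutation p = 0.00546) and 0.63 for Irx2 with Gcg (permutation p = 0.0133), and all 4 passed after adjustment. Within the 6 Ctrl chow libraries r was 0.90 for Irx1 with Sst (exact permutation p = 0.0292), which did not pass after adjustment. Sst spread most in Ctrl chow, with an SD of 244 CPM against 17.9 to 61.2 CPM in the other groups. The relations to Sst with group means removed therefore draw most on these 6 libraries. They were not repeated without Ctrl chow replicates 1 and 4, or with the LIRKO chow pairs summed.

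The genes whose level ran most like those of the other members, by r over the 18 libraries and with no test, did not include Gcg or Sst. For Neurog3 they were Calb1, Cds1 and 5033430I15Rik, with r of 0.83, 0.82 and 0.79. For Sox4 they were Smyd4, 9330160F10Rik and Dusp12, with r of 0.96, 0.94 and 0.94. For Myt1 they were Odf2, Peg3 and Col6a6, with r of 0.89, 0.88 and 0.88, and for Sox9 they were Rgs10, Csrp2 and Crybg2, with r of 0.78, 0.76 and 0.74. Ctrl HFD replicates 1 and 2 are high in Sox4, and their part in its r values was not tested.

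Of a list of 36 progenitor, endocrine and alpha cell factors and relatives of the members, 26 were tested. In LIRKO chow against Ctrl chow, where 2.2% of all genes were called lower, 0 were higher and 1 was lower: Foxa2, a factor of early endoderm and of mature islets, averaged 58.0 ± 4.1 CPM (SD, n = 4) in LIRKO chow and 81.4 ± 7.4 CPM (SD, n = 6) in Ctrl chow, a log2 change of −0.49 (edgeR adjusted p = 0.0228). In Ctrl HFD against Ctrl chow, where 5.57% of all genes were called higher, 1 was higher and 0 were lower: Isl1, which endocrine cells need to mature, averaged 205 ± 78 CPM (SD, n = 5) in Ctrl HFD and 132 ± 20 CPM (SD, n = 6) in Ctrl chow, a log2 change of 0.63 (edgeR adjusted p = 0.0436). None of the 26 passed with edgeR in LIRKO HFD against Ctrl HFD, where 0.508% of all genes were called, or in LIRKO HFD against LIRKO chow, where 2.03% were, with all libraries in the fit. Foxa2 kept its call without Ctrl HFD replicates 1 and 2 and lost it with the LIRKO chow pairs summed (adjusted p = 0.265) and without LIRKO chow replicate 1, 3 or 4 (adjusted p = 0.0608, 0.0886 and 0.112). Isl1 lost its call without Ctrl HFD replicates 1 and 2, where its log2 change was 0.20 (adjusted p = 0.325), and in 13 of the 18 fits that left out 1 library (adjusted p of 0.0239 to 0.140 over all 18). Isl1 averaged 178 ± 3.9 CPM (SD, n = 3) in LIRKO HFD and 122 ± 3.0 CPM (SD, n = 4) in LIRKO chow. It was higher with no overlap, as were 16.1% of all genes. Its log2 change there was 0.55 with all libraries (adjusted p = 0.239). It was 0.56 without Ctrl HFD replicates 1 and 2, where it passed (adjusted p = 0.0179), and 0.54 with the LIRKO chow pairs summed (adjusted p = 0.644). The median log2 change of the 26 genes was −0.21, −0.21, 0.11 and 0.15 in LIRKO chow against Ctrl chow, LIRKO HFD against Ctrl HFD, Ctrl HFD against Ctrl chow and LIRKO HFD against LIRKO chow. The median over all genes in the same order was −0.02, −0.04, 0.04 and 0.03.

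The Notch pathway holds back Neurog3 through Hes1 in the developing pancreas, and all 12 genes of a Notch list were tested. In Ctrl HFD against Ctrl chow 5 of the 12 were higher, against 5.57% of all genes, and 0 were lower, with a median log2 change of 0.37. The 5 were the receptor Notch3, the ligands Dll4 and Jag1, the target Hey1 and Lfng, which modifies Notch receptors. Hey1 averaged 2.76 ± 1.29 CPM (SD, n = 5) in Ctrl HFD and 0.773 ± 0.527 CPM (SD, n = 6) in Ctrl chow (log2 change 1.81, edgeR adjusted p = 0.0280). Dll4 averaged 25.8 ± 7.4 CPM in Ctrl HFD and 12.3 ± 3.3 CPM in Ctrl chow (log2 change 1.06, adjusted p = 0.0305), and for Jag1 the log2 change was 0.63 (adjusted p = 0.0434). Hes1 had a log2 change of 0.55 and did not pass (adjusted p = 0.0545). In LIRKO HFD against LIRKO chow 1 of 12 was higher, against 1.06% of all genes, and 0 were lower: Lfng averaged 1.21 ± 0.26 CPM (SD, n = 3) in LIRKO HFD and 0.322 ± 0.187 CPM (SD, n = 4) in LIRKO chow (log2 change 1.89, adjusted p = 0.0375). Between genotypes 0 of 12 passed on chow, where 5.15% of all genes were called, and 0 of 12 on HFD, where 0.508% were. With the LIRKO chow pairs summed, 0 of 12 passed in either diet comparison, in a fit that called 0.577% of all genes in Ctrl and 0.0354% in LIRKO mice. Without Ctrl HFD replicates 1 and 2, 0 of 12 passed in Ctrl mice, at a median log2 change of 0.47, and 3 of 12, Dll4, Hey1 and Lfng, were higher in LIRKO HFD than in LIRKO chow. That fit called 0.18% of all genes in Ctrl and 6.29% in LIRKO mice, against 9.93% and 2.03% with all libraries, so the counts over all genes moved the same way. These 2 settings were applied to the lists and markers after seeing the data. Endothelial cells also use this pathway, and the summed level of 7 endothelial markers was 230 to 283 CPM in LIRKO HFD, 16.8 to 169 CPM in LIRKO chow, 144 to 277 CPM in Ctrl HFD and 34.8 to 187 CPM in Ctrl chow. Esam, an endothelial junction protein, passed in both diet comparisons, with log2 changes of 1.04 in LIRKO mice (adjusted p = 0.0306) and 0.66 in Ctrl mice (adjusted p = 0.0438), and in neither with the LIRKO chow pairs summed (adjusted p = 0.207 and 0.0637). The part of endothelial RNA in the Notch values was not tested.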

How the data were processed

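RNA-seq libraries of sorted mouse beta cells were analysed from 1 table of counts, the whole numbers of reads per Ensembl gene that the authors deposited without normalization. STAR, featureCounts and the genome build GRCm38 are named, per the submitters' processing notes, without versions. The annotation and strand setting of the counting were not given in the sources used here. Gene symbols were matched here with GENCODE M21, which named 52489 of 53090 genes. Groups come from the genotype and diet in the labels.

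Genes were filtered with filterByExpr, scaled by TMM and tested with edgeR 4.0.16 (quasi-likelihood test, R 4.3.3), with all 18 libraries and 4 groups in 1 fit, for 4 pairwise comparisons and the interaction. P-values were adjusted by Benjamini-Hochberg over 19284 genes, and under 0.05 passed. The common dispersion had a square root of 0.314. The steps were tested on simulated data. Correlations used log2 CPM with a prior count of 2 and 100000 permutations (exact within 6 libraries), with SciPy 1.17.1. Count ratios used a prior of 0.5 and exact permutation tests.

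The members and lists were chosen with earlier results of these data known. Named were the 8 members, Gcg and Sst, up to 4 genes per list and comparison (those that passed, by p), the top marker genes, and the 3 genes most like each member; Notch3, Hes1, Esam, Krt19, Slc38a5 and Fam241b were named outside this rule, after their values were seen. Alternatives were RLE and upper-quartile scaling, DESeq2 1.42.0, limma-voom (limma 3.58.1), no filter, only the groups compared, each library left out, LIRKO chow pairs summed, Ctrl HFD replicates 1 and 2 left out, and Gcg and Sst as covariates. Promoters are from RefSeq.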

Additional observations from a re-analysis of the deposited data

How the results depend on the processing

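The count of members past the threshold was 0 in every alternative for LIRKO HFD against Ctrl HFD and for the interaction. In Ctrl HFD against Ctrl chow it was 1, where 9.93% of all genes were called. It was 2 with upper-quartile scaling or DESeq2 (Irx2 and Sox4; 11.5% and 20.5% of all genes), and 0 with limma-voom (8.42%), with no filter (1.28%), with only the 2 groups compared (0.00585%) or with the LIRKO chow pairs summed (0.577%). Without Ctrl HFD replicates 1 and 2 it was 1 (0.18%), but Irx2 in place of Sox4. In LIRKO HFD against LIRKO chow it was 0 (2.03% of all genes), 1 with DESeq2 (Neurog3; 5.49%), 3 with only the 2 groups compared (Irx2, Neurog3 and Sox4; 18.8%) and 2 without Ctrl HFD replicates 1 and 2 (Neurog3 and Sox4; 6.29%). In LIRKO chow against Ctrl chow it was 0 (5.15%), and 1 with only the 2 groups compared (Sox4; 9.52%) or with Gcg and Sst as covariates (Myt1; 8.36%). The share of all genes called also moved between these fits, and the count of members did not always follow it. In Ctrl HFD against Ctrl chow, 1 member passed in a fit that called 0.18% and 0 in one that called 8.42%. Leaving out 1 library gave 0 to 2 calls in Ctrl HFD against Ctrl chow, 0 to 1 in LIRKO HFD against LIRKO chow and 0 in the other comparisons. The Sox4 call in Ctrl HFD against Ctrl chow was lost without any of LIRKO chow replicates 1 to 4, LIRKO HFD replicates 2 and 3, Ctrl HFD replicates 1 and 2, and Ctrl chow replicates 1, 2, 3, 5 and 6. Relations past the threshold numbered 1, with 6 when group means were removed (Irx1, Irx2 and Myt1 with Gcg, and Irx1, Sox9 and Myt1 with Sst), 0 within Ctrl chow, where 6 libraries limit the test, and 1 to 2 when a library was left out. Of the named list genes in Ctrl HFD against Ctrl chow, Hey1 and Dll4 lost their calls without Ctrl HFD replicate 1 or 2 or Ctrl chow replicate 1, 2 or 6 (adjusted p of 0.0551 to 0.0840), and Jag1 lost its call in 12 of 18 such fits (adjusted p of 0.0280 to 0.105 over all 18). Lfng in LIRKO HFD against LIRKO chow lost its call without LIRKO chow replicate 1 or 2, LIRKO HFD replicate 1, 2 or 3, or Ctrl chow replicate 2 (adjusted p of 0.0505 to 0.179). No ratio per Gcg passed in any alternative. Upper-quartile scaling moved the median log2 change of all genes to 0.18 in Ctrl HFD against Ctrl chow and to 0.15 in LIRKO HFD against LIRKO chow, so its changes there are relative to that shift.

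Changes of sign were among values that passed no test. For Irx1 in LIRKO chow against Ctrl chow the log2 change was 0.00198 with upper-quartile scaling, 0.0170 with no filter, 0.00592 with only the 2 groups compared, 0.0345 with pairs summed, 0.0177 without Ctrl HFD replicates 1 and 2 and 0.562 with covariates, and for Sox9 it was 0.571 with covariates. Without Ctrl HFD replicates 1 and 2, LIRKO HFD against Ctrl HFD gave −0.396 for Irx1, −0.217 for Irx2, 0.315 for Sox4 and −0.361 for Gcg; Ctrl HFD against Ctrl chow gave −0.0309 for Neurog3 and −0.0261 for Sox9; and the interaction gave −0.414 for Irx1, 0.389 for Sox9, 0.868 for Sox4 and −0.269 for Gcg. With covariates, Myt1 in LIRKO HFD against LIRKO chow was −0.0406 and the interaction of Irx1 −0.482, and with limma-voom the interaction of Sox4 was 0.188. Correlations that turned were those of Irx2 and Neurog3 with Sst within Ctrl chow (0.828 and 0.307), of Sox4 with Gcg and Sst with pairs summed (−0.0598 and −0.0394), of Neurog3 and Sox4 with Gcg and of Irx2 and Neurog3 with Sst with group means removed (−0.0164, −0.285, 0.441 and 0.0903), and of Neurog3 and Sox4 with Gcg without the 2 farthest libraries (−0.0844 and −0.249). Irx1 per Gcg was 0.160 in LIRKO HFD against Ctrl HFD without Ctrl HFD replicates 1 and 2, and 0.0559 in LIRKO HFD against LIRKO chow with no prior count. The cause of these changes was not tested.

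When each library was left out, log2 changes in LIRKO chow against Ctrl chow ranged from −0.996 to 0.339 for Irx1, −0.674 to 0.241 for Gcg and −1.17 to 0.0894 for Sox9. In LIRKO HFD against Ctrl HFD they ranged from −0.324 to 0.611 for Irx1 and −0.372 to 0.678 for Gcg, in Ctrl HFD against Ctrl chow from −0.0215 to 1.23 for Sox9 and −0.131 to 0.530 for Neurog3, and in LIRKO HFD against LIRKO chow from −0.120 to 0.185 for Myt1. For the interaction they ranged from −0.303 to 1.03 for Irx1, −0.243 to 0.853 for Gcg, −0.872 to 0.387 for Sox9, −0.347 to 0.208 for Irx2 and −0.458 to 0.194 for Sox4. Correlations ranged from −0.107 to 0.177 for Sox4 with Gcg, −0.0446 to 0.0741 for Sox4 with Sst, −0.162 to 0.0232 for Irx2 with Sst and −0.285 to 0.0563 for Neurog3 with Sst. Irx1 per Gcg ranged from −0.288 to 0.195 in LIRKO HFD against LIRKO chow and −0.342 to 0.134 in LIRKO HFD against Ctrl HFD, and Irx2 per Gcg from −0.969 to 0.953 in LIRKO HFD against Ctrl HFD, −1.84 to 0.0835 in LIRKO HFD against LIRKO chow and −0.137 to 0.633 in Ctrl HFD against Ctrl chow.

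No paired analysis was possible because the labels give no replicate numbers. Relations and ratios of Hhex and Pax4 were not run, since Hhex was at 0 and Pax4 did not pass the filter. Counts of 2 to 37 for Sox9 and 3 to 108 for Irx1 per library limit what their tests can detect.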
